A study of Mus musculus with 8 samples.

Results

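Voltage-gated sodium channels, voltage-gated calcium channels and HCN channels set how a neuron fires, and the genes for their subunits were followed here through the cell types of the mouse hippocampus. Members were all gene symbols in the count tables beginning with Scn and a digit or with Cacna, and those of the numbered Cacnb, Cacng and Hcn families. This rule, which used names and no measured value, took 44 of the 30211 genes listed. They comprised 10 sodium channel alpha subunits, 4 sodium channel beta subunits, 10 calcium channel alpha1 subunits, 4 alpha2delta subunits, 4 calcium channel beta subunits, 8 gamma subunits and 4 HCN subunits. No antisense gene had such a name, and no member shared its strand and position with another listed gene (GENCODE M21, GRCm38).

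A sodium or calcium channel alpha subunit forms the pore and senses voltage, and the smaller subunits alter its gating or its transport to the membrane. Sodium channels carry the upstroke of the action potential. Calcium channels of the L, P/Q, N and R types open at strong depolarization and feed gene regulation or transmitter release, while T-type channels open near rest. HCN channels open on hyperpolarization and carry a mixed cation current that holds the resting potential, and several gamma subunits are better known as partners of AMPA receptors than of calcium channels.

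Nuclei came from whole hippocampus of C57BL/6 mice, with 1 library per mouse. The WT group held 3 mice aged 7 mo. The GKO group held 3 mice of the same age with a constitutive Gsap deletion, obtained by crossing a floxed allele to mice expressing Cre from the CMV promoter. The J20;WT and J20;GKO groups held 1 mouse each, aged 6 mo, and both carried the J20 transgene, human APP with familial Alzheimer's disease mutations under the PDGF-B promoter, with Gsap intact or deleted. Unique molecular identifiers (UMIs) were counted per gene and nucleus, and 32041 nuclei passed the filter. Libraries held 21020159 to 43310978 UMIs, with medians of 4579 to 6438.5 per nucleus, and any pair of libraries shared 2 to 21 cell barcodes. Dates carried by the deposited data put the first WT and the first GKO library in one group, the J20;WT library in another and the remaining 5 together. Xist was at 2259 CPM in the first WT library, 2135 CPM in the first GKO library and 2410 CPM in J20;GKO, and at 1.7 to 3.0 CPM in the other 5, so date and sex cannot be told apart among the 6 mice aged 7 mo. Gsap was at 22.3 to 22.98 CPM in the 3 WT libraries, 19.8 to 21.99 CPM in the 3 libraries labelled GKO, 19.9 CPM in J20;WT and 21.2 CPM in J20;GKO. Its log2 fold change between the groups of 3 was -0.07 ± 0.09 (SE), with an adjusted p of 1.00 (edgeR), so the counts did not separate the genotype labels. The paper removed only some exons of Gsap. It reported their excision by genomic PCR and lower Gsap mRNA by quantitative RT-PCR. The counts here are per gene and were not split by exon, so they cannot show the loss of those exons.

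Clusters were named from marker genes, with the channel genes left out of the features that built them. Excitatory neurons comprised 12354 nuclei, among them 5577 dentate granule, 2276 CA1, 1040 CA3, 134 CA2 and 74 mossy cell nuclei, with smaller sets resembling subiculum (713), deep cortex (588) and upper cortex (636). Interneurons comprised 1401 nuclei, of which 262 were Sst, 203 Pvalb, 206 Vip, 182 Cnr1-high and 282 Lamp5 nuclei, and 217 nuclei were Cajal-Retzius cells. Between 8.48% and 21.14% of nuclei per library stayed unnamed, including clusters with few UMIs that held 2.45% to 13.01%. Levels below are UMI counts of a gene scaled to a common total, the usual CPM, of the summed nuclei of a type in a library, used where the library had at least 10 nuclei of the type, and given as the mean ± SD over libraries. Types are clusters of the same nuclei, so differences between them are described without a test. UMI counts of long genes need not compare with those of short genes, and each gene is compared with itself across types.

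Of the 44 members, 34 reached 20 CPM in at least 1 type. The other 10 included Scn4a of skeletal muscle, Scn7a, Scn10a and Scn11a of sensory neurons, Scn4b, Cacna1f of retina, Cacna1s of skeletal muscle, Cacng1 and Cacng6. Their highest type means lay below 20 CPM, with Scn7a highest in Vip interneurons (19.7 CPM). Among the 34, the highest mean over the broad classes lay in excitatory neurons for 14, in interneurons for 14, in oligodendrocyte precursor cells (OPCs) for 4 and in oligodendrocytes for 2. It lay in astrocytes or microglia for 0. The same count over all genes was not made. Cajal-Retzius cells and mural cells or fibroblasts were not among these classes. Of the 34, Scn3a, Cacna2d2, Cacng5 and Hcn4 had their highest type mean in Cajal-Retzius cells. For 4 of the 34, among them Scn9a, Cacna2d2 and Cacng4, the highest of the 19 types stood above the next type in every library, a share below the 19.3% of all genes that reached 20 CPM in a type. For the other 30, the 2 highest types overlapped.

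**Figure D1:**
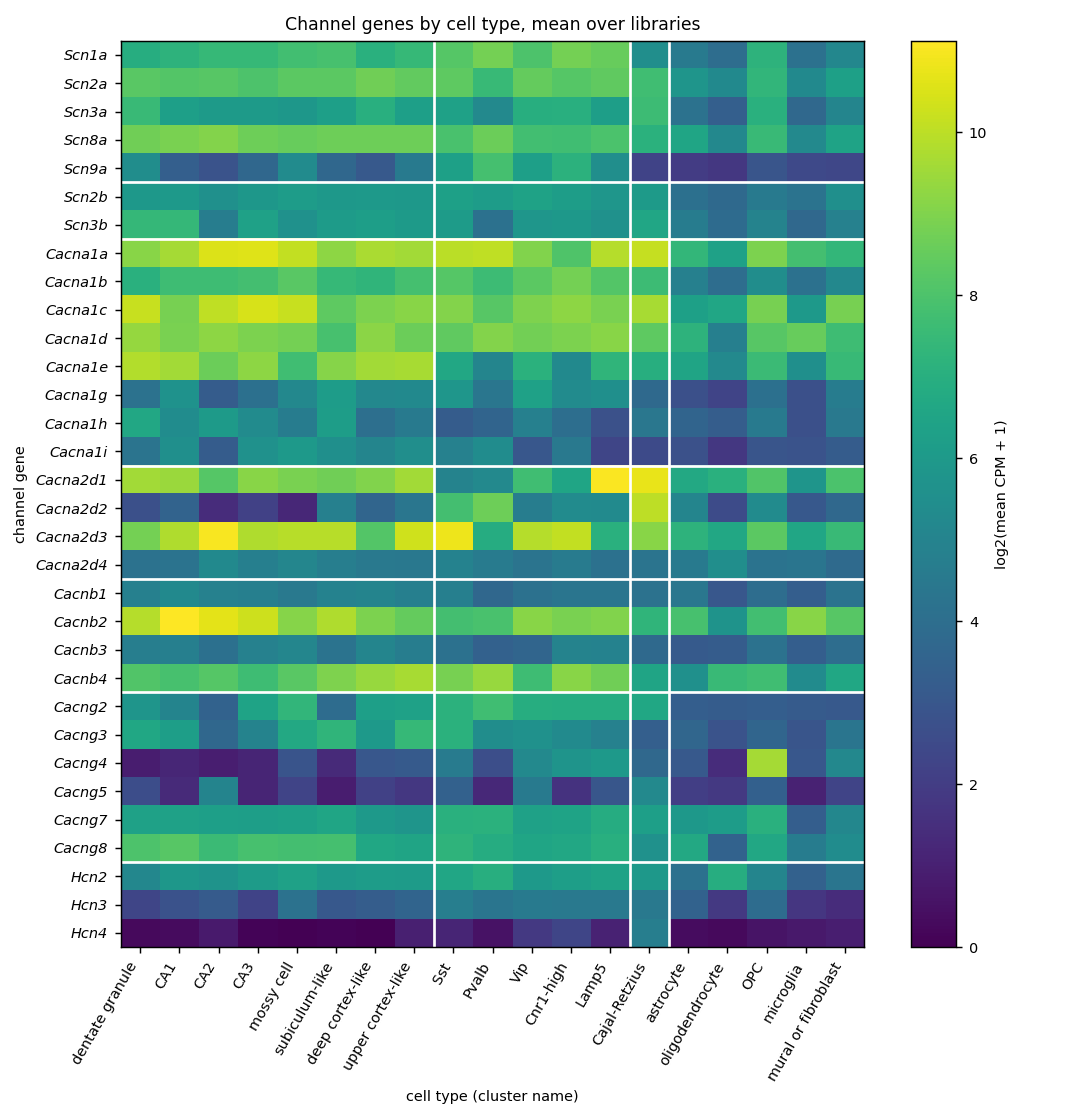
Mean level of 32 channel genes that reached 20 CPM in a type (rows, grouped by family) in 19 cell types (columns; excitatory, interneuron, Cajal-Retzius and non-neuronal types separated by white lines), coloured by log2(mean CPM + 1) over libraries. Cacng4 is bright in OPCs at 794 CPM and Cacna2d2 in Cajal-Retzius cells at 1045 CPM.

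Scn1a, Scn2a, Scn3a, Scn7a and Scn9a, pore-forming subunits, lie together within 1327.8 kb of chromosome 2. Of these, Scn1a and Scn9a were the members with the most uneven levels in the sodium alpha family, and both were highest in Pvalb interneurons. Scn9a is chiefly known from sensory neurons of the pain pathway. It reached 196, 216 and 235 CPM in the Pvalb nuclei of the WT libraries, 230, 208 and 262 CPM in those of the GKO libraries, and 203 and 277 CPM in J20;WT and J20;GKO. Its mean there was 228 ± 28.6 CPM (n = 8), above Cnr1-high interneurons at 140 ± 24.4 CPM in every library, while CA1 neurons held 9.23 ± 4.09 CPM. Dentate granule neurons, at 43.0 ± 17.8 CPM, and mossy cells, at 39.9 ± 10.2 CPM (n = 3), had higher means than CA1 to CA3, although the libraries of dentate granule neurons overlapped those of CA1 and of CA3. Scn1a, whose loss in interneurons is known to cause epilepsy, reached 526, 408 and 380 CPM in Pvalb nuclei of WT mice, 505, 410 and 363 CPM in those of GKO mice, and 454 and 551 CPM in J20;WT and J20;GKO. These values overlapped those of Cnr1-high interneurons, at 438 ± 69.98 CPM, and lay above those of every hippocampal excitatory type, which had means of 122 (dentate granule) to 238 CPM (subiculum-like). OPCs held 144 ± 25.1 CPM of Scn1a, against 22.3 ± 7.82 CPM in astrocytes.

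The promoter windows of Scn1a and Scn9a are shown because these neighbours shared their highest type, and those of Cacna2d2 and Cacna1e because their levels differed widely, in opposite directions, between interneurons and excitatory neurons. Each runs from 250 bases before to 50 bases after the start that RefSeq gives (GRCm38.p6), on the strand of the gene. Scn1a is at chr2:66440788-66441087, minus strand. Scn9a is at chr2:66634913-66635212, minus strand. Cacna2d2 is at chr9:107399630-107399929, plus strand. Cacna1e is at chr1:154725871-154726170, minus strand. GENCODE places the Cacna1e gene at 154390731 to 154884501, so this window lies inside the gene and not at its annotated 5' end. Capitals mark the GC box GGGCGG on either strand.
Scn1a: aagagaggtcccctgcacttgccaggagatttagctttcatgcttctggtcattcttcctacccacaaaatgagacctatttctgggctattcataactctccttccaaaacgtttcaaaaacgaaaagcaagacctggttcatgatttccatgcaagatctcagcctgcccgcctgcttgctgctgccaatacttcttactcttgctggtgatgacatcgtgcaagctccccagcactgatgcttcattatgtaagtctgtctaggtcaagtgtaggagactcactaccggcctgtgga
Scn9a: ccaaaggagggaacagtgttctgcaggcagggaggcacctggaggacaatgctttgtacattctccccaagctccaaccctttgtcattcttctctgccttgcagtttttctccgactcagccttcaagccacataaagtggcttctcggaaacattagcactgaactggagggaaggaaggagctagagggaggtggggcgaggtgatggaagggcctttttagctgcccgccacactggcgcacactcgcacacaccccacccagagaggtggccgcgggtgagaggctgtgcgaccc
Cacna2d2: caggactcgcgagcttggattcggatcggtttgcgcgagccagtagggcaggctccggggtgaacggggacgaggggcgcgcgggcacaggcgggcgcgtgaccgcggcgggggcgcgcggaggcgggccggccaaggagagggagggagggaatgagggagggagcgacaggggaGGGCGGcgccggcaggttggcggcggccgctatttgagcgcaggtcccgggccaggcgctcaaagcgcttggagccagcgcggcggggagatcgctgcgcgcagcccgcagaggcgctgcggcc
Cacna1e: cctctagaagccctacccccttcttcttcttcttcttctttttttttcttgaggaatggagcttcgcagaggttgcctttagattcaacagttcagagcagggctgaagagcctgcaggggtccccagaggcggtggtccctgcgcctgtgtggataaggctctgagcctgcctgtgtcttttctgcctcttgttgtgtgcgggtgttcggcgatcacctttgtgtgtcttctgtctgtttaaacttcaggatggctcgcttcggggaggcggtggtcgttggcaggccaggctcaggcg
Only the Cacna2d2 window of these 4 held the GC box letters, 1 time, and none of the 4 held TATAAA on either strand. Across the 43 windows given for 32 of the members, 18 held a GC box (41.9%) and 2 held TATAAA (4.65%). The shares over all 32851 windows of that length were 35.7% and 13.6%. The GC content was 47.3% for Scn1a, 57.3% for Scn9a, 75.7% for Cacna2d2 and 55.3% for Cacna1e, with a median of 59.7% over the members' windows and 52.7% over all.

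Scn3a, a sodium channel best known from the developing brain, was highest in Cajal-Retzius cells (196 CPM) and dentate granule neurons (183 CPM), followed by OPCs (131 CPM). CA1 and CA3 neurons held 77.1 and 65.2 CPM, and Pvalb interneurons 36.6 CPM. Scn2a was spread evenly over neuron types, from 181 CPM in Pvalb to 418 CPM in deep cortex-like neurons, and Scn8a, the main channel of the axon initial segment in adult neurons, ranged from 209 CPM in Cnr1-high to 525 CPM in CA2 neurons, with Cajal-Retzius cells lower still at 136 CPM. Among the beta subunits, Scn3b separated dentate granule (168 ± 37.5 CPM) and CA1 neurons (169 ± 26.1 CPM) from CA3 (82.2 ± 8.56 CPM), CA2 (24.99 ± 11.1 CPM, n = 7) and Pvalb neurons (16.7 ± 10.8 CPM). In dentate granule neurons Scn3b was at 199, 187 and 166 CPM in WT, 191, 195 and 183 CPM in GKO, and at 97.5 and 122 CPM in J20;WT and J20;GKO, so both J20 libraries fell below the other 6.

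The calcium channel pores divided the neuron types along different lines. Cacna1e, the R-type channel, was the most uneven of the alpha1 subunits that reached 20 CPM. Excitatory neurons held 828, 666 and 714 CPM in WT, 908, 719 and 649 CPM in GKO, and 687 and 637 CPM in J20;WT and J20;GKO. Interneurons held 56.6 to 139 CPM with a median log2 ratio to excitatory neurons of -3.02, and no library of one class reached the other. Pvalb and Cnr1-high interneurons were lowest among neurons, at 32.2 ± 18.3 and 38.3 ± 17.3 CPM, and dentate granule neurons highest, at 912 ± 89.3 CPM. Cacna1a, the P/Q-type channel of presynaptic terminals, was highest in CA3 (1507 CPM) and CA2 (1497 CPM), and lowest among neurons in Cnr1-high interneurons (268 CPM). Cacna1b, the N-type channel, had the reverse place in Cnr1-high interneurons, which held its highest mean, 438 CPM. Cacna1c, the main L-type channel of neurons, reached 1416 CPM in CA3 and 1182 CPM in dentate granule neurons against 463 CPM in CA1 and 331 CPM in subiculum-like neurons. The related L-type channel Cacna1d ranged less, from 238 CPM in subiculum-like to 653 CPM in dentate granule neurons, and stood at 365 CPM in microglia.

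The 3 T-type genes each had their own place. Cacna1h was highest in dentate granule neurons, at 116, 113 and 101 CPM in WT, 88.7, 97.4 and 96.3 CPM in GKO, 61.6 CPM in J20;WT and 130 CPM in J20;GKO. It averaged 71.1 ± 7.21 CPM in subiculum-like neurons, 41.0 ± 6.82 CPM in CA1 and 5.83 ± 4.04 CPM in Lamp5 interneurons. Cacna1g was highest in Vip interneurons (81.6 ± 11.6 CPM) and subiculum-like neurons (69.98 ± 9.36 CPM), whose libraries overlapped. Cacna1i was highest in mossy cells (63.1 CPM, n = 3) and CA3 (48.0 CPM) and lay at 18.7 CPM in dentate granule neurons.

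Alpha2delta subunits, which carry calcium channels to the presynaptic membrane and include the targets of gabapentin, divided the interneurons. Cacna2d1 reached 2061, 1811 and 1983 CPM in Lamp5 interneurons of WT, 2532, 1609 and 1859 CPM in those of GKO, and 2368 and 2568 CPM in J20;WT and J20;GKO. Cajal-Retzius cells were next at 1721 ± 121 CPM, with overlapping libraries. Sst and Pvalb interneurons held 30.9 ± 30.3 and 37.1 ± 55.3 CPM, below the 289 to 775 CPM of the excitatory types. The first GKO library, at 172 CPM, made up most of the spread in Pvalb nuclei, where the other 7 libraries lay between 7.09 and 42.6 CPM. Cacna2d3 was the opposite of Cacna2d1 in these types, at 1846 ± 356 CPM in Sst and 132 ± 80.5 CPM in Lamp5 interneurons, but low in Pvalb interneurons too (118 ± 42.1 CPM). It was highest in CA2, at 2075 ± 249 CPM (n = 7), against 892 CPM in CA1 and 878 CPM in CA3.

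Cacna2d2 was high in Pvalb interneurons, where Cacna2d1 and Cacna2d3 were both low. It reached 425, 450 and 360 CPM in WT, 372, 372 and 452 CPM in GKO, and 416 and 444 CPM in J20;WT and J20;GKO. Sst interneurons followed at 225 ± 30.1 CPM, and Vip, Cnr1-high and Lamp5 interneurons held 25 to 40.0 CPM. Cajal-Retzius cells were higher than any other type in every library, at 693 to 1235 CPM, and the excitatory types had means of 1.4 to 27.6 CPM. Cacna2d4 varied least within the family and was highest in oligodendrocytes (43.8 CPM), with means of 13.4 to 37.3 CPM in all other types.

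Calcium channel beta subunits bind the pore inside the cell. Cacnb2 was highest in CA1 at 2996, 1892 and 1649 CPM in WT, 3129, 2094 and 1898 CPM in GKO, and 2083 and 2080 CPM in J20;WT and J20;GKO, overlapping CA2 at 1638 ± 387 CPM (n = 7). Dentate granule neurons held 930 ± 126 CPM, and Sst and Pvalb interneurons 221 and 245 CPM. Microglia, at 566 ± 100 CPM, were above both. Cacnb4, the subunit mutated in the lethargic mouse, was highest in upper cortex-like neurons, at 850, 849 and 833 CPM in WT, 751, 648 and 803 CPM in GKO and 867 CPM in J20;GKO. Pvalb interneurons (677 ± 109 CPM) and deep cortex-like neurons (676 ± 186 CPM) overlapped them. Its lowest excitatory mean was 201 CPM in CA3, and oligodendrocytes held 187 ± 34.6 CPM. Cacnb1 and Cacnb3 had type means of at most 38.4 CPM.

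Of the gamma subunits, Cacng4 was the most restricted. In OPCs it reached 718, 993 and 753 CPM in WT, 736, 803 and 810 CPM in GKO, and 765 and 779 CPM in J20;WT and J20;GKO, above every other type in every library. The next type, Lamp5 interneurons, held 62.7 ± 22.6 CPM, and dentate granule neurons held 0.838 ± 0.444 CPM. Cacng5 was low throughout and rested on 23 UMIs in Cajal-Retzius cells, where it was at 20.98, 20.1 and 26.9 CPM in WT, 14.7, 54.3 and 30.6 CPM in GKO, and 70.1 and 57.2 CPM in J20;WT and J20;GKO. It was at 31.4 ± 11.6 CPM in CA2 (n = 7) and 22.1 ± 14.5 CPM in Vip interneurons. CA1 and CA3 held 1.495 ± 1.14 and 1.2 CPM. Stargazin, encoded by Cacng2, was highest in Pvalb interneurons (207 CPM) and Cacng3 in upper cortex-like neurons (172 CPM). Cacng8, the AMPA receptor partner typical of hippocampus, was highest in CA1 (296 CPM) and dentate granule neurons (255 CPM).

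Hcn2, the widespread subunit, was as high in oligodendrocytes (123 ± 37.9 CPM) as in Pvalb interneurons (124 ± 35.5 CPM), and was lowest among neurons in dentate granule neurons (34.2 ± 5.68 CPM). Hcn3 had means of at most 25.9 CPM, reached in Sst interneurons. Hcn4, the pacemaker subunit of the heart, averaged at most 4.04 CPM, in Cnr1-high interneurons, outside Cajal-Retzius cells. In Cajal-Retzius cells it averaged 26.2 ± 28.8 CPM and rested on 16 UMIs over the 8 libraries. J20;WT, at 93.5 CPM, carried much of that mean. The WT libraries held 10.5, 30.1 and 13.4 CPM there, the GKO libraries 14.7, 27.2 and 20.4 CPM, and J20;GKO was at 0.

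**Figure D2:**
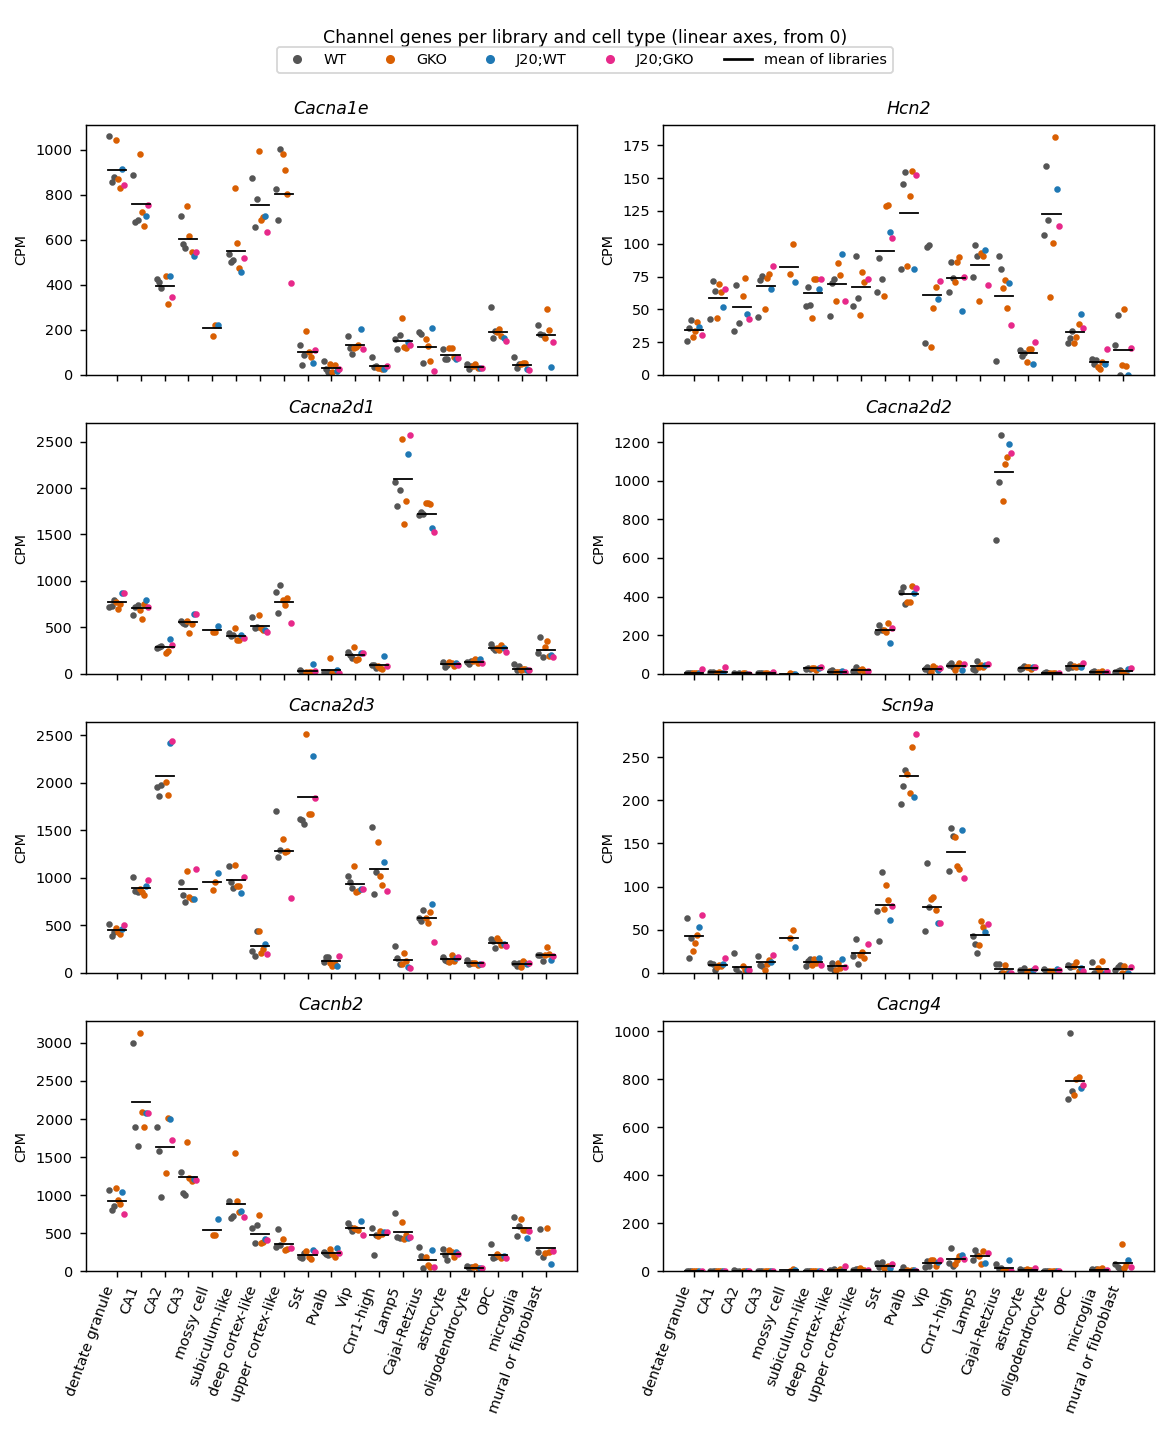
Level of 8 channel genes in 19 cell types (linear axes in CPM from 0); each point is 1 library, coloured by group, and the bar is the mean over libraries. For Cacna2d1 the Sst and Pvalb points lie near the axis while the Lamp5 points lie between 1609 and 2568 CPM, and for Cacng4 all 8 OPC points (718 to 993 CPM) lie above those of every other type.

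For the main pairs of neuron types, the members that separated the types in all 8 libraries were counted, over genes with a mean of at least 1 CPM in the pair. CA1 was higher than dentate granule neurons for 8 of 36 members, against 8.47% of all genes, and lower for 5, against 9.40%. The 8 included Cacna1a, Cacna1i, Cacna2d3, Cacnb2 and Hcn2, and the 5 were Scn3a, Cacna1c, Cacna1d, Cacna1h and Cacng2. Another of the 8, Scn4b, had means of 2.25 CPM in CA1 and 0.396 CPM in dentate granule neurons, so it passed the filter through CA1 alone. Without the J20 pair the second count was 8 of 36, against 15.1% of all genes. CA3 was higher than dentate granule neurons for 7 of 37 members (8.83% of all genes) and lower for 7 (9.39%). Those higher included Scn1a, Cacna1a, Cacna1b, Cacna1i and Hcn2. Those lower were Scn3a, Scn3b, Cacna1d, Cacna1e, Cacna1h, Cacna2d1 and Cacng3.

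CA1 was higher than CA3 for 5 of 38 members (5.14% of all genes), among them Scn8a, Scn3b and Cacng3, and lower for 4 (5.44%), Scn7a, Cacna1a, Cacna1c and Cacng2. Interneurons were higher than excitatory neurons for 10 of 37 members (12% of all genes) and lower for 9 (10.8%). Higher in interneurons were, among others, the sodium channels Scn1a and Scn9a, Cacna1b, Cacna2d2, Cacng2, Cacng4, Cacng7, Hcn2 and Hcn3. Lower were Scn8a, Scn3b, the calcium channel pores Cacna1c, Cacna1e, Cacna1h and Cacna1i, Cacnb1, Cacnb2 and Cacng8. The median log2 ratio of the members between these classes was 0.09, beside 0.09 over all genes, with 0.5 CPM added before the ratio.

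Transcripts of neurons were found in the other types, and channel levels there stand beside them. Snap25, Syt1, Rbfox3, Meg3, Nrgn and Slc17a7 reached 5.52% to 28.6% of their excitatory level in oligodendrocytes, 10.4% to 28.6% in OPCs, 11.3% to 25.03% in astrocytes and 7.77% to 33.1% in microglia. A channel gene was counted as above this range where its level, as a percentage of the higher of its 2 neuron classes, passed the highest of these 6 transcripts. Most genes pass it, and the counts of channel genes lay below the share over all genes that reached 20 CPM in a type. In OPCs 24 of 34 channel genes did, beside 89.2% of all genes. Cacng4 was at 1679% of its interneuron level, Scn3a at 114% of its excitatory level and Cacng7 at 112% of its interneuron level. Cacna1a and Cacna1c, at 486 and 456 CPM, stood at 55.3% and 54.1%. In oligodendrocytes 6 of 34 passed, beside 77.4% of all genes, led by Cacna2d4 (182%) and Hcn2 (132%), with Cacnb4 at 37.7%. In microglia 6 of 34 passed, beside 75.6% of all genes, among them Cacna2d4 (78.7%), Cacna1d (72.6%) and Cacnb2 (49.5%), while Scn2a, Scn8a and Cacna1e stood at 11.9%, 8.61% and 6.28%. The counts in OPCs and in microglia both include Hcn4, which had only 3 UMIs in each type. In astrocytes 9 of 34 passed, beside 85.7% of all genes, including Cacna2d4 at 93.6% and Cacng7 at 50.6%. The part of free or neighbouring RNA in these levels was not tested.

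Other genes of the channel complexes were read from a list of 30, of which 29 were found. Ryanodine receptors, which release calcium from internal stores, were highest in dentate granule neurons for Ryr1 (44.0 CPM) and Ryr2 (1391 CPM) and in CA1 for Ryr3 (1021 CPM). Pex5l, whose product binds HCN channels, was highest in oligodendrocytes (2186 ± 597 CPM), as was Kctd3 (184 ± 38.6 CPM), while Hcn2 was highest in Pvalb interneurons with oligodendrocytes next. Fgf13, an intracellular partner of sodium channels, was highest in Lamp5 interneurons (2408 ± 492 CPM), Stac in subiculum-like neurons (173 ± 27.8 CPM) and Stac2 in Pvalb interneurons (107 ± 30.1 CPM). The IP3 receptor Itpr2 (420 ± 45.5 CPM) and the lysosomal channel Tpcn1 (150 CPM) were highest in microglia.

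The question of whether Gsap deletion moves channel genes was put to the 6 mice aged 7 mo, with counts summed per mouse and type. In none of 10 types did a channel gene pass the threshold, an adjusted p under 0.05 with a log2 fold change over 0.3 in size, in edgeR's quasi-likelihood test. The same held for all genes, with 0 of 17272 called in excitatory neurons (0%), 0 of 12219 in interneurons, 0 of 14046 in dentate granule neurons, 0 of 12865 in CA1 and 0 of 11986 in CA3. An unadjusted p under 0.05 was found for 148 to 248 genes per type, or 1.15% to 2.88% of those tested. These shares lay below the 0.05 that uniform p-values would give. Among tests of channel genes, 5 of 304 had such a p (1.64%, beside 1.68% of all tests). Dentate granule, CA1, CA3 and subiculum or cortex-like nuclei are also part of the excitatory class, so the types are not independent. DESeq2 called 1 gene in interneurons and 1 in subiculum or cortex-like neurons, and neither was a channel gene. With the replicate numbers as a block, 1 gene was called in each of interneurons, oligodendrocytes, OPCs and CA1, again with no channel gene. Under that block 24 of the 304 tests of channel genes had an unadjusted p under 0.05 (7.89%, beside 4.29% of all tests), and with a date term 22 did (7.24%, beside 4.19%). Between 25 and 29 genes of the partner list were tested per type, and 0 were called.

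In excitatory neurons 40 members were tested and 21 had a log2 fold change above 0, beside 51.5% of all genes. The median of the members was 0.01, beside 0.00 over all genes, and their median SE was 0.15. The 3 with the smallest p were Scn2b at -0.22 ± 0.11, Scn7a at -0.38 ± 0.23 and Cacng5 at -0.37 ± 0.22 (SE, adjusted p = 1.00 for each, edgeR). Scn2b, a beta subunit that binds sodium channel pores by a disulfide bond, was at 55.5, 65.8 and 70.4 CPM in WT and 47.5, 60.7 and 54.1 CPM in GKO, and the groups overlapped. Scn7a lay at 2.18 to 3.48 CPM in WT and 1.98 to 2.23 CPM in GKO, and Cacng5 at 4.47 to 5.32 and 2.71 to 4.41 CPM. In interneurons 21 of 34 members were above 0, beside 51.8% of all genes, with a median of 0.06 beside 0.01 over all genes. Cacng3 was at 72.3, 72.2 and 76.3 CPM in WT and 102, 80.2 and 85.1 CPM in GKO, with no overlap (log2 fold change 0.32 ± 0.17 SE, adjusted p = 1.00, edgeR). Hcn3 was at 0.39 ± 0.22 and Scn2b at -0.30 ± 0.19. Scn2b was below 0 in 9 of 10 types, which come from the same mice, with values from -1.01 to 0.49. Members above 0 numbered 19 of 31 in astrocytes, 14 of 27 in oligodendrocytes, 7 of 28 in OPCs and 5 of 16 in microglia. They numbered 14 of 34 in dentate granule neurons, 11 of 31 in CA1, 16 of 30 in CA3 and 16 of 33 in subiculum or cortex-like neurons. The shares over all genes in these types were 49.3% to 51.3%.

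**Figure D3:**
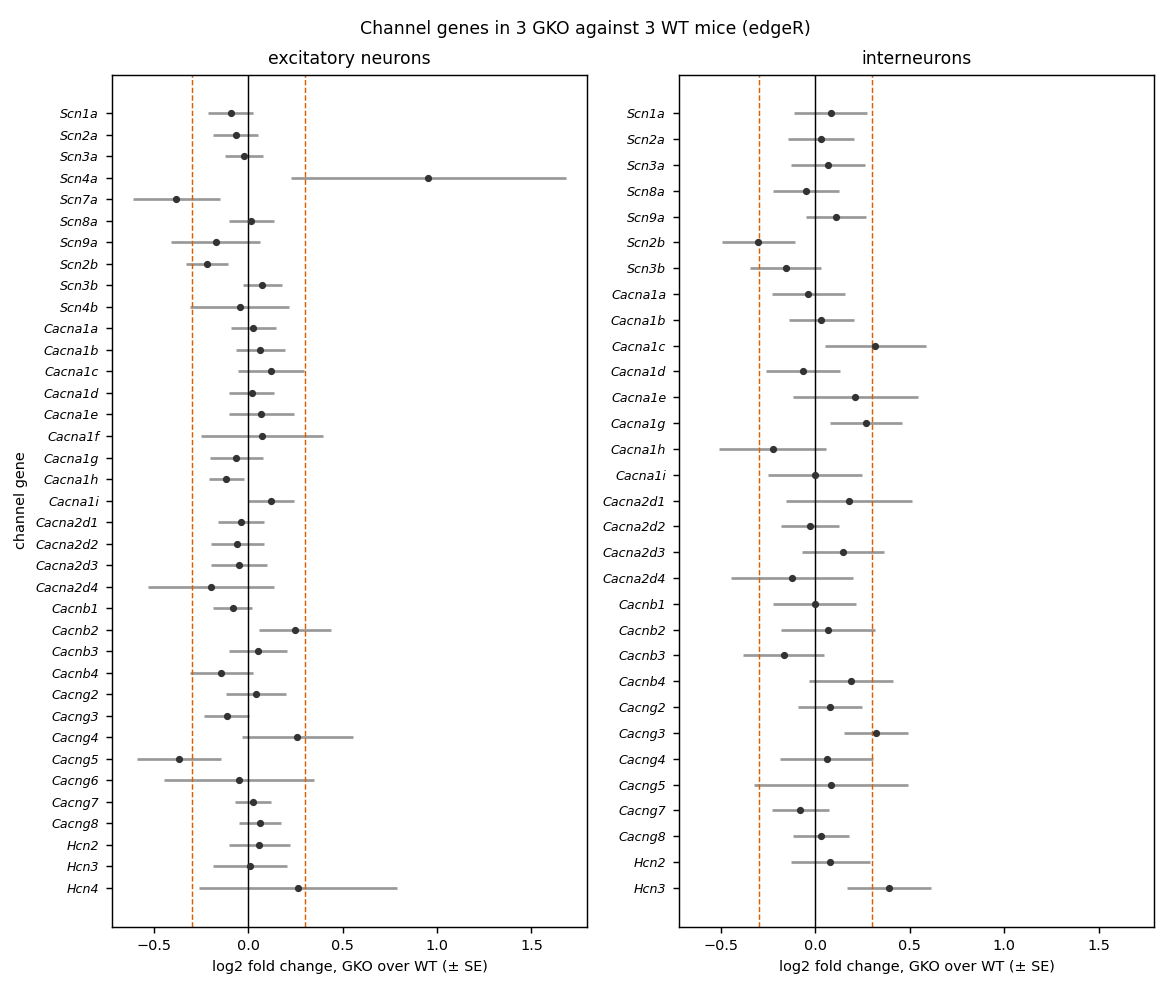
Log2 fold change of GKO over WT (points, with SE as bars) for channel genes tested in excitatory neurons (left, 37 genes) and interneurons (right, 31 genes), from 3 mice per group. Dashed lines mark 0.3 on either side of 0; no channel gene was called, and Scn4a at 0.95, the point farthest from 0, had a mean below 1 CPM in every type.

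In the other types, the channel gene with the smallest p was Cacng2 in astrocytes, Cacng3 in oligodendrocytes, Scn3b in OPCs, Scn1a in microglia, Cacna1g in dentate granule neurons, Scn2b in CA1, Cacna1i in CA3 and Hcn3 in subiculum or cortex-like neurons. Adjusted p was 1.00 for each (edgeR). Cacng2 in astrocytes was at 16.5, 13.02 and 11.2 CPM in WT and 3.19, 7.37 and 5.27 CPM in GKO, with no overlap, and its mean over the 8 libraries was 6.29% of the interneuron level. These levels rested on 38, 24 and 13 UMIs in WT and 5, 13 and 11 in GKO. Scn1a in microglia likewise lay at 17.4 to 47.7 CPM in WT and 8.68 to 13.4 CPM in GKO, and its mean over the 8 libraries was 4.54% of the interneuron level. Its counts were 39, 10 and 9 UMIs in WT and 9, 4 and 8 in GKO. Cacng3 in oligodendrocytes (5.95 to 9.31 CPM in WT, 1.27 to 5.92 CPM in GKO) and Scn3b in OPCs (26.7 to 51.5 and 19.6 to 29.6 CPM) were also at low levels. Cacna1i in CA3 was at 42.7, 36.7 and 48.8 CPM in WT and 48.6, 63.5 and 55.4 CPM in GKO, with a log2 fold change of 0.41 ± 0.15 (SE) and overlapping groups. Cacna1g in dentate granule neurons was at 12.4, 10.1 and 10.3 CPM in WT and 4.30, 9.91 and 8.67 CPM in GKO. Hcn3 in subiculum or cortex-like neurons was at 8.23 to 12.2 CPM in WT and 6.24 to 7.38 CPM in GKO. The effect in interneurons was also set against that in excitatory neurons in one model with mouse as a term. It called 1 of 16389 genes (0.00610%) and 0 of 38 channel genes.

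With 1 mouse each, the J20 pair gives no spread between mice, and values are set beside the 6 mice aged 7 mo, which also differ in age. Intervals are exact Poisson 95% intervals and cover counting error only. In excitatory neurons, 30 members had at least 200 UMIs in the pair. On the log2 scale, J20;GKO stood above J20;WT by a median of 0.02 over these members, beside -0.03 over 10775 genes, and 3 passed 1.5-fold in either direction, beside 9.60% of genes. These were Cacna2d2, Cacna1g and Cacna1h. Highest was Cacna2d2, at 8.07 CPM (6.64 to 9.72) in J20;WT and 25.1 CPM (22.6 to 27.9) in J20;GKO, where the 6 other mice held 8.07 to 10.1 CPM. It passed the filter of 200 UMIs through J20;GKO alone. Next was Cacna1g, at 28.1 CPM (25.4 to 31.1) in J20;WT and 65.2 CPM (61.0 to 69.6) in J20;GKO, with 22.02 to 33.7 CPM in the 6 others. In both cases J20;GKO alone left the range of the others. Lowest were Scn3a, which went from 128 CPM in J20;WT to 92.4 CPM in J20;GKO (107 to 125 in the 6 others), and Cacna1c, from 936 to 679 CPM (724 to 1039). One excitatory subcluster of 172 nuclei held 144 nuclei of J20;GKO. Without the nuclei of no named subtype, among them this subcluster, the log2 ratio of Cacna2d2 went from 1.63 to 2.04 and that of Cacna1g from 1.21 to 1.38.

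In dentate granule neurons the T-type gene Cacna1g differed more than in excitatory neurons as a whole. It was at 7.80 CPM (5.52 to 10.7) in J20;WT and 75.2 CPM (66.5 to 84.7) in J20;GKO, while the 6 other mice lay between 4.30 and 12.4 CPM. The level in J20;GKO was thus 9.64 times that in J20;WT and 6.06 times the highest of the 6. The log2 ratio of the pair, 3.25, was number 10 from the top among 6666 genes with at least 200 UMIs. Cacna1h, the second T-type gene, was at 61.6 CPM (54.8 to 69.0) in J20;WT and 130 CPM (118 to 142) in J20;GKO, below and above the 88.7 to 116 CPM of the 6 others. Within subcluster 1 of the dentate granule nuclei, described below, J20;GKO held 128 CPM, inside the 110 to 138 CPM of the 6 others, and within subcluster 0 it held 129.8 CPM against 65.5 to 92.2 CPM. Cacna2d2, with 107 UMIs in the pair, was at 2.05 CPM (0.984 to 3.77) in J20;WT and 26.8 CPM (21.7 to 32.7) in J20;GKO, against 1.86 to 3.71 CPM. In all, 3 of 27 members with at least 200 UMIs passed 1.5-fold, beside 14.6% of genes, and the median was 0.01 beside -0.05. The other member past it was Cacnb3, at 27.7 CPM in J20;WT and 41.7 CPM in J20;GKO, against 18.6 to 30.7 CPM. Cacna1h, Cacna2d2 in dentate granule neurons and Cacnb3 were named after their values were seen. J20;GKO lay outside the range of the 6 mice for 19 of 27 members and 55.6% of genes, and J20;WT for 7 of 27 members and 57.1% of genes.

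Dentate granule nuclei fell into 2 subclusters, and J20;GKO had 372 nuclei in subcluster 0 and 30 in subcluster 1, against 618 and 153 in J20;WT. Subcluster 1 thus held 7.46% of the dentate granule nuclei of J20;GKO and 19.8% of those of J20;WT, against 42.5% to 54.4% in the 6 others. The higher level of Cacna1g in J20;GKO was present in both. In subcluster 0 it was at 4.42 CPM in J20;WT and 77.5 CPM in J20;GKO, with 1.13 to 4.99 CPM in the 6 others. In subcluster 1 it was at 17.5 CPM (22 UMIs) in J20;WT and 51.8 CPM (17 UMIs) in J20;GKO. The 6 others held 7.18 to 17.98 CPM there. The part of the subcluster shares in the Cacna1g levels was not tested. In CA1, Cacna1g was at 48.4 CPM in J20;WT, 81.5 CPM in J20;GKO and 30.9 to 54.1 CPM in the 6 others. In the same dentate granule nuclei the neuropeptide gene Npy was at 9.44 CPM in J20;WT, 646 CPM in J20;GKO and 2.28 to 3.37 CPM in the 6 others, and the calcium buffer Calb1 at 68.6, 50.3 and 116 to 148 CPM. The sex and date of the J20 pair differ as well, and their part in these values was not tested.

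In dentate granule neurons both J20 libraries also stood apart from the 6 others for Scn3b, at 97.5 and 122 CPM against 166 to 199 CPM. Scn3b was higher in subcluster 1 than in subcluster 0 in the 6 others, and the J20 libraries held fewer nuclei of subcluster 1. Within subcluster 0 its values were 89.3 and 120.1 CPM against 120 to 180 CPM, where J20;GKO met the lowest of the others, and in subcluster 1 they were 121 and 146 CPM against 202 to 232 CPM. The part of the subcluster shares in the Scn3b levels was not tested. Transgene, age and, for J20;WT, date cannot be told apart here.

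**Figure D4:**
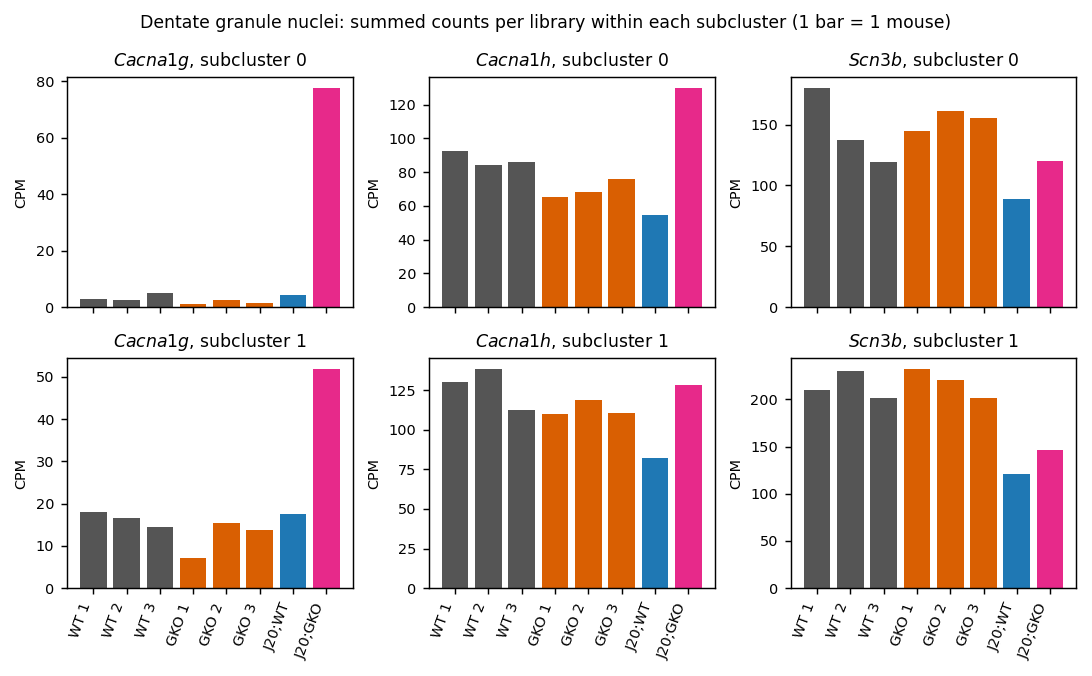
Level (CPM, linear axes from 0) of Cacna1g, Cacna1h and Scn3b in dentate granule nuclei of each library, separately for subcluster 0 (top) and subcluster 1 (bottom); each bar is 1 mouse, so no error is drawn. Cacna1g in J20;GKO stands at 77.5 and 51.8 CPM, above the other 7 libraries in both subclusters.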

How the data were processed

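Single nuclei of 8 mouse hippocampi (WT, n = 3; GKO, n = 3; J20;WT and J20;GKO, n = 1 each) were profiled with 10X chemistry. The authors isolated nuclei on iodixanol and deposited raw UMI counts per gene and nucleus, made with Cell Ranger 3.0.2 on mm10 per the file headers. Whether intronic reads were counted is not given in the sources used here. The submitters' processing notes also name Seurat 3.0 and R 3.6.2. Each library was 1 mouse, and p-values measure the spread between mice. In the main fit, which had no block, this spread takes in the date and sex by which the first WT and first GKO mice differ from the others.

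Nuclei with 200 to 7500 genes and at most 5% mitochondrial UMIs were kept. All were clustered together with Seurat 5.3.0 and sctransform 0.4.2 after the libraries were integrated. Excitatory neurons and interneurons were then clustered again on log-normalized counts scaled per library, without integration. The dentate granule subclusters came from this second step. Neither step used the channel genes as features. Clusters were named from marker lists after they were seen, and those with few UMIs stayed unnamed. Doublets were called with scanpy 1.11.5 (Scrublet) and removed only as an alternative, and the caller marked almost no nuclei in the first WT and first GKO libraries, so that alternative changed only the other 6. Counts were summed per mouse and type, and GKO was compared with WT by edgeR 4.0.16 (quasi-likelihood, filterByExpr, TMM, Benjamini-Hochberg adjustment over all genes tested), with DESeq2 1.42.0 as an alternative. The test was checked on simulated data. The members and gene lists were chosen with earlier results of these data known. Genes given in full per library were the 2 most uneven of each family (highest over median type mean) among members reaching 20 CPM in a type, those with the smallest p per type and the 2 highest and 2 lowest of the J20 pair in excitatory neurons.

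Libraries of WT and GKO with the same replicate number deviated together (r of 0.69, 0.30 and 0.33 over genes), but they also shared a date group. A block by replicate number was used as an alternative. Pairs with different numbers but the same date group had r of 0.31 and 0.44, so these correlations do not show that the numbers pair the mice. Other alternatives were library size without TMM, no low-count filter, date as a term, each mouse left out, at least 1000 UMIs per nucleus, and TMM-scaled CPM. Depth was 21020159 to 43310978 UMIs per library. Intervals and floors cover counting error only. Some members of the families are not reported here, so some lists of names are partial.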

Additional observations from a re-analysis of the deposited data

Results flagged for a closer look

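Channel genes with at least 200 UMIs in the J20 pair gave 6 cases of opposite direction. In each, all GKO mice aged 7 mo lay on one side of all WT mice, and J20;GKO lay on the other side of J20;WT. Details are given for 3 of them. The difference between the effects was not tested, since the J20 groups hold 1 mouse each. Cacna1g in dentate granule neurons stood 3.25 higher in J20;GKO than in J20;WT on the log2 scale, while its GKO mice aged 7 mo all lay below the WT mice. With 38 UMIs in J20;WT and 272 in J20;GKO, it passed the filter of 200 UMIs through J20;GKO alone. Cacna1h in dentate granule neurons stood 1.07 higher, with GKO below WT at 7 mo. Cacng3 in interneurons differed by -0.16, with GKO above WT at 7 mo, and the counting intervals of its J20 libraries overlapped. The closest WT and GKO values of Cacna1g were 10.1 and 9.91 CPM. By type, the 6 cases were 3 of 27 channel genes in dentate granule neurons (with Cacnb1, beside 2.25% of 6666 genes), 2 of 21 in CA3 (Scn3a and Cacng7, beside 1.98% of 3997 genes) and 1 of 23 in interneurons (beside 2.25% of 3460 genes). There were 0 of 30 in excitatory neurons as a whole (1.37% of genes), 0 of 25 in CA1 (1.69%) and 0 in astrocytes, oligodendrocytes, OPCs and microglia. The counting intervals of the J20 libraries also overlapped for Cacnb1 in dentate granule neurons and for Scn3a and Cacng7 in CA3. They did not overlap for Cacna1g and Cacna1h. No labelled group held 4 or more libraries, so no library could be checked for standing apart within its group.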

How the results depend on the processing

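No channel gene passed the threshold for GKO against WT under any setting in any of the 10 types, and the smallest adjusted p of a channel gene ranged from 0.3513 (edgeR with a date term) to 0.9996. The count of all genes called, 0 in each type, moved in some. With the replicate block, 1 gene was called in each of interneurons, oligodendrocytes, OPCs and CA1, and the block changed no other call. With a date term, 2 genes were called in interneurons, 1 in OPCs and 1 in CA1. Without a filter beyond 1 UMI, 21 were called in interneurons, 2 in astrocytes, 2 in OPCs, 6 in microglia, 1 in dentate granule neurons and 5 in CA3. DESeq2 called 1 in interneurons and 1 in subiculum or cortex-like neurons. Leaving out 1 mouse gave 0 to 1, with 1 in interneurons without the first GKO mouse and 1 in OPCs without the third. The cause was not tested. The count of channel genes lower in CA1 than in dentate granule neurons went from 5 to 8 without the J20 pair, which leaves fewer libraries to overlap. The values of the J20 pair in named subtypes and single dentate subclusters were alternatives chosen after seeing the data. The log2 ratio of Cacna1g in dentate granule neurons was 4.09 in subcluster 0 and 1.57 in subcluster 1, and that of Cacna1h 1.25 and 0.65. In named excitatory subtypes alone, Cacna1c was at -0.43, Cacna1g at 1.38 and Cacna2d2 at 2.04. No direction was reversed in any of these. Rare types limit precision, since mossy cells gave 74 nuclei in 3 libraries.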
